A study of Saccharomyces cerevisiae with 23 samples.

Results

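RNA from the aneuploid yeast population T2 was compared with RNA from the aneuploid population A3, over all genes. The pair, 6 of the 23 sequenced libraries, was chosen by a measured value, the share of counts in ribosomal protein genes, which was similar in both. All 6596 genes of the count table belong to the comparison; 6531 of them had at least 1 count in the series and 6111 passed the low-count filter and were tested.

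The study set karyotypically mixed aneuploid populations of budding yeast (Saccharomyces cerevisiae) beside euploid populations, to look for expression changes that go with aneuploidy. T2 was obtained by tetrad dissection, and A3 by a route that the labels call a-selection. Each is 1 population, sequenced as 3 libraries. The comparisons used for contrast share no library with T2 and A3: aneuploid T1 (tetrad dissection) against aneuploid A2 (a-selection), and the euploid populations of both routes against each other, with 3 libraries each. For every sample the labels give the strain BY4741 and no treatment. Overnight cultures in rich YPD medium were moved to fresh YPD in deep-well plates and kept at 23 °C for 4 h.

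Route, population, karyotype mixture and any difference in mating-type makeup cannot be told apart between T2 and A3. The labels do not say that the 3 libraries of a population came from separate cultures, so p-values reflect only library-to-library spread, which may be purely technical. BY4741 is a haploid laboratory strain of mating type a with deletions of HIS3, LEU2, MET17 and URA3. The labels do not say which selection markers the populations carry.

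An aneuploid cell holds extra or missing copies of single chromosomes, and in yeast the transcripts of most genes tend to follow the copy number of their chromosome. Haploid yeast cells of mating types a and alpha each make one pheromone and carry the receptor for the other; a received pheromone acts through a G protein and a MAP kinase cascade on the transcription factor Ste12, which switches on the genes of mating. Yeast in rich medium also tunes its ribosomal protein genes up and its stress and respiration genes down as it grows faster, so that populations at different growth states differ at a large part of their genes.

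The T2 libraries held 13025623 to 16101523 counts and the A3 libraries 13694946 to 18186823; the range over the series was 12719710 to 19327344. Ribosomal protein genes (137) took 9.46%, 9.08% and 8.87% of the counts in T2 and 8.68%, 8.85% and 8.66% in A3, a description of how the pair was chosen. Their mean share was 6.29% in T1, 5.63% in A2, 1.33% and 3.06% in the euploid tetrad and a-selection populations, and 25.5% in the haploid control. Ribosome biogenesis genes took 0.637% ± 0.0110 (SD, n = 3) in T2 and 0.643% ± 0.00110 in A3. The match did not extend to the stress-induced genes, which took 5.58% ± 0.0198 in T2 and 6.47% ± 0.0734 in A3, without overlap between libraries. The part of this difference in the results below was not tested.

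At an adjusted p under 0.05 (edgeR quasi-likelihood test, Benjamini-Hochberg over 6111 genes), 3777 genes differed, 61.8% of those tested. Of these 1437 were higher in T2 (23.5%) and 2340 were lower (38.3%). Both shares are the background for the list counts given below. With only the 6 libraries of the pair in the fit, the split was 1835 higher and 1847 lower. Most differences were small: the median absolute log2 fold change was 0.18, and 86 genes (1.41%) were higher and 40 (0.655%) lower by 2-fold or more. T1 against A2 gave 3805 called genes (62.3%; 27.9% were higher in T1 and 34.3% lower), and the euploid populations gave 4314 (70.6%). T2 against A3 thus had nearly as many called genes as T1 against A2. T1 and A2 are not an unmatched pair, with ribosomal protein shares of 6.29% and 5.63%. Their stress-induced genes took 8.08% and 8.56% of counts, beside 5.58% in T2 and 6.47% in A3.

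Genes called in the same direction in T2 against A3 and in T1 against A2 numbered 2271: 870 higher (14.2%) and 1401 lower (22.9%). They make up 60.1% of the calls of the first comparison and 59.7% of the second. Another 505 genes (8.26% of those tested) were called in opposite directions. Of the 86 genes at least 2-fold higher in T2, 66 were also called higher in T1 against A2, 2 were called lower and 18 were not called. Of the 40 at least 2-fold lower, 29 were called lower in T1 against A2, 3 were called higher and 8 were not called. The difference between the 2 comparisons, tested as an interaction, passed the threshold for 2605 genes (42.6%).

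Mating-type genes were among the genes furthest apart between T2 and A3, together with the markers URA3 and LEU2. All 5 alpha-specific genes, which only alpha cells normally transcribe, were higher in T2. MF(ALPHA)1 (YPL187W, chrXVI:193648-194145), the main gene for the alpha pheromone, stood at 341, 316 and 313 CPM (counts per 1e6 counts of a library, TMM-scaled) in T2 and at 1.35, 1.26 and 2.34 CPM in A3. The T2 libraries lay far above all A3 libraries, and the ratio of summed counts, each divided by its TMM-scaled library size, was 188 (95% counting interval 152 to 237). The second alpha pheromone gene, MF(ALPHA)2, averaged 261 CPM in T2 against 1.32 CPM in A3. STE3 (YKL178C, chrXI:113215-114627), the receptor for a pheromone, measured 284, 287 and 291 CPM in T2 and 7.14, 7.39 and 7.84 CPM in A3. Its log2 fold change was 5.26 ± 0.06 (SE; adjusted p = 2.9e-26, edgeR); 272 bases of it overlap another annotated gene. SAG1, the agglutinin on the surface of alpha cells, was higher by 3.73 ± 0.03 on the log2 scale, and AFB1, which encodes an a-pheromone blocker, by 2.48 ± 0.05, with 206 bases overlapping another gene.

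In these bulk libraries more alpha cells and more RNA per alpha cell cannot be told apart. The labelled strain is of type a, so transcripts of alpha-specific genes in T2 go beyond what the strain label alone describes. The genes of the mating-type locus were not read for either population, since the silent loci hold near-identical copies.

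The a-specific genes did not mirror this pattern. Of the 7, 6 were called higher in T2 as well, and MFA1 was called lower. BAR1, the protease that degrades alpha pheromone, had 762, 779 and 789 CPM in T2 and 273, 256 and 267 CPM in A3, with a log2 fold change of 1.55 ± 0.02. AGA2, the a-cell agglutinin subunit, was higher by 1.69 ± 0.04 and the alpha pheromone receptor STE2 by 0.68 ± 0.02. ASG7 was higher by 0.73, the pheromone gene MFA2 by 0.54 and the a-pheromone exporter STE6 by 0.21. MFA1 measured 147, 158 and 148 CPM in T2 and 173, 182 and 183 CPM in A3, a log2 fold change of -0.25 ± 0.06; with each chromosome centred on its own median the call was lost (-0.12). In T1 against A2 all 7 were called higher, MFA1 by 1.02, and the MFA1 interaction was called (-1.27, adjusted p = 1.1e-11, edgeR).

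Signalling components and their targets were higher in T2. In the list of haploid-specific signalling genes 7 of 10 were called higher and 2 lower. The transcription factor STE12 (YHR084W, chrVIII:274174-276240) had 362, 379 and 384 CPM in T2 and 76.4, 75.0 and 75.1 CPM in A3, a log2 fold change of 2.31 ± 0.03. That gene lies on chromosome VIII, where most genes were lower in T2. Also higher were SST2, which turns the G protein off, by 2.16, the MAP kinase FUS3 by 1.57 and FAR1, which arrests the cell cycle, by 1.52. GPA1, the G protein alpha subunit, was higher by 0.92. The called exceptions were RME1, a repressor of meiosis, at -0.81 and the scaffold STE5 at -0.29; STE18 had 0.15 and was not called.

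All 18 pheromone-induced genes were called higher, with a median log2 fold change of 1.51 against -0.05 over all tested genes. Among them PRM1 (YNL279W, chrXIV:110917-112902), which acts in fusion of the mating cells' membranes, showed the largest difference, with 339, 365 and 369 CPM in T2 and 15.96, 17.9 and 18.3 CPM in A3 (4.35 ± 0.05). The agglutinin anchor AGA1 followed with 4.20 ± 0.05 and PRM6 with 3.73 ± 0.11, though 243 bases of PRM6 overlap another gene. For FUS1, a fusion protein at the tip of the mating projection, the libraries gave 473, 496 and 496 CPM against 48.3, 45.0 and 48.0 CPM (3.37 ± 0.04). The smallest differences in the list were 0.24 for the kinesin KAR3 and 0.44 for the phosphatase MSG5. In T1 against A2 the list looked alike, with 17 of 18 called higher and a median of 1.87. Between the euploid populations, tetrad against a-selection, all 18 were called higher and the median was larger, 4.37. The 5 alpha-specific (median 7.78), 7 a-specific (2.10) and 10 haploid-specific signalling genes (1.98) were all called higher there too. Over all tested genes 35.1% were called higher in that comparison.

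The binding motif of Ste12, TGAAACA on either strand, was looked for between 300 and 101 bases before each start codon, a window that keeps clear of most transcribed leader sequence. It occurred in 11 of the 18 pheromone-induced genes and in 4.65% of all 5748 windows of tested genes. The windows of PRM1 (chrXIV:110617-110816) and FUS1 (chrIII:71503-71702, both plus strand, RefSeq R64) are shown because they hold several matches and belong to 2 of the genes named above; capitals mark the motif or its reverse complement.
PRM1: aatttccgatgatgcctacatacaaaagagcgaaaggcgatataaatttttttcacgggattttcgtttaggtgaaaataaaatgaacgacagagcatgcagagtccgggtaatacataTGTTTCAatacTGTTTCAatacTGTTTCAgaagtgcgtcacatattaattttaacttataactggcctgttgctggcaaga
FUS1: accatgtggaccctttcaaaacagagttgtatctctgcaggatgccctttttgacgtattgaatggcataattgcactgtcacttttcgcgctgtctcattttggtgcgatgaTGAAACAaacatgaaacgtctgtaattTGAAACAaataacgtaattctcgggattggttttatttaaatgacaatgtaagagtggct
PRM1 holds 3 matches, evenly spaced, and FUS1 holds 2. A match describes the letters of the window, not binding.

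Genes in common use as selection markers separated the populations as sharply. URA3 (YEL021W, chrV:116167-116970), an enzyme of pyrimidine synthesis, had 6771 counts over the T2 libraries and 8 counts over the A3 libraries (1, 1 and 6). The ratio, scaled in the same way, was 851, with a 95% counting interval of 432 to 1973 that covers counting error only. LEU2 (YCL018W, chrIII:91324-92418), an enzyme of leucine synthesis, went the other way, with 18.7, 19.0 and 17.9 CPM in T2 and 372, 374 and 383 CPM in A3. Its log2 fold change was -4.34 ± 0.05 (adjusted p = 4.4e-26, edgeR), the largest drop of any gene named here. HO, the mating-type switching endonuclease, which is transcribed in haploid cells, averaged 62.8 CPM in T2 and 7.27 CPM in A3, and the libraries did not overlap.

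Other genes of the marker list were less far apart than URA3, LEU2 and HO: MET17 was at -0.82 and ADE2 at -0.58 on the log2 scale, CAN1 was at 0.31, and LYS2 and LYP1 were not called. HIS3 (-0.18) and TRP1 (-0.17) were called lower, and both calls were lost with chromosome-centred offsets (-0.11 and -0.035). T1 against A2 showed URA3 and HO higher and LEU2 lower too (LEU2 -2.89), while MET17 was higher there (0.89). IME4, a gene of meiotic entry, was called higher in T2 by 4.71 ± 0.14, from 36 counts over the A3 libraries and 947 over T2. In haploid cells an antisense transcript crosses IME4, and the sources used here do not say whether counting used strand, so the strands cannot be told apart.

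**Figure D1:**
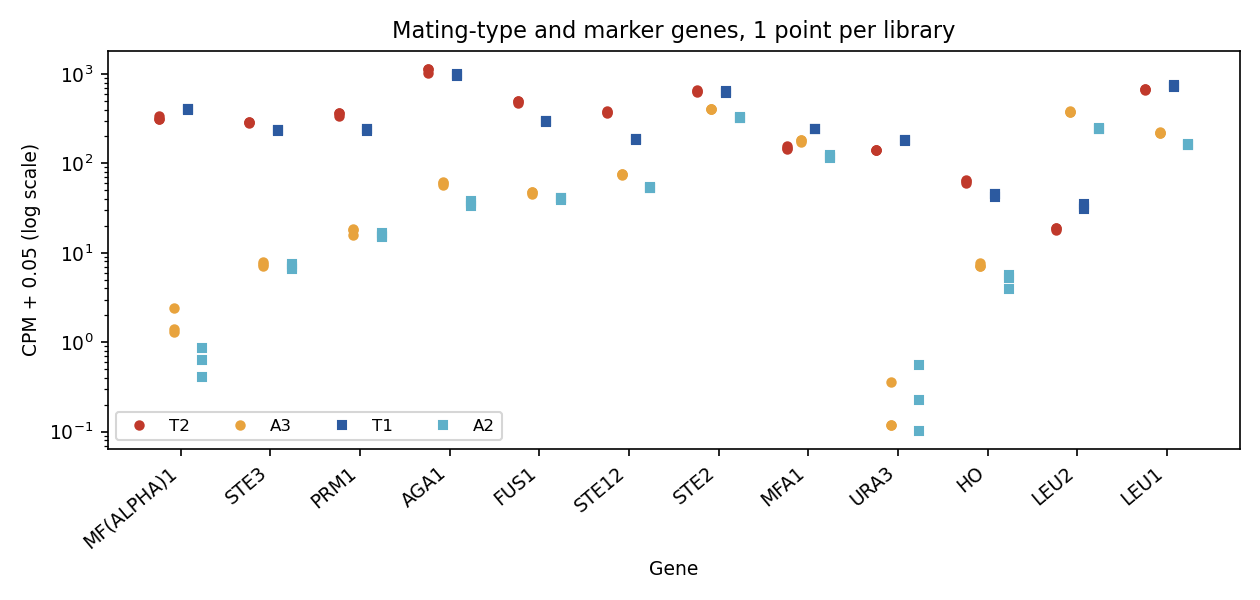
TMM-scaled CPM plus 0.05 (log axis) of 12 mating-type and marker genes, with 1 point per library for T2, A3, T1 and A2. T2 and T1 lie above A3 and A2 for all genes but LEU2 and MFA1; MFA1 averages lower in T2 than in A3.

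Several other genes of the leucine, isoleucine and valine branch were higher in T2, opposite to LEU2. LEU1 (YGL009C, chrVII:476313-478652), the isomerase that acts one step before Leu2, measured 656, 673 and 679 CPM in T2 and 221, 223 and 217 CPM in A3, 1.60 ± 0.03 on the log2 scale. ILV3 and ILV5, which act in the steps shared by valine and leucine, were higher by 0.93 and 0.82, and the branched-chain amino acid permease BAP2 by 0.91. Outside the rule for named genes, and picked after their values were seen, ILV2 was higher by 0.50, BAT1 by 0.46, LEU4 by 0.33 and the regulator LEU3 by 0.53, while BAT2 was at -0.64 and ILV1 (0.03), ILV6 (0.06) and LEU9 (0.09) were not called. In T1 against A2 the same genes had larger differences for LEU1 (2.18) and ILV5 (2.27), and the ILV5 interaction was called (-1.45, adjusted p = 6.4e-19, edgeR).

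The Gcn4 list as a whole did not follow them: 22 of its 56 amino acid synthesis genes were called higher and 26 lower, with a median of 0.04. Asparagine synthetase ASN1 was at -0.85. Among amino acid permeases 11 of 17 were called higher and 0 lower. The motif of the leucine regulator Leu3, CCG and CGG separated by any 4 bases, lies in 4 of 56 windows of the Gcn4 list and in 1.37% of all windows. LEU1's window (chrVII:478753-478952, minus strand) is shown because it holds 2 matches, in capitals.
LEU1: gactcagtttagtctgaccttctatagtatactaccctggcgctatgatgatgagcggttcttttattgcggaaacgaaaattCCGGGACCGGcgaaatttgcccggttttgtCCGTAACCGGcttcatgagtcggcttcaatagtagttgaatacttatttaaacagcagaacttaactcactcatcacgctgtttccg

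Iron genes were another group higher in T2. Aft1 and Aft2 turn on iron uptake when iron is short. Of 28 listed genes 24 were called higher and 2 lower, with a median log2 fold change of 0.40. Heme oxygenase HMX1 (YLR205C), which frees iron from heme, had 81.1, 80.2 and 82.3 CPM in T2 and 35.3, 33.7 and 36.5 CPM in A3 (1.20 ± 0.04). FRE5, of the ferric reductase family, was higher by 1.18 and the cell wall siderophore-retaining protein FIT3 by 1.00. TIS11 (also called CTH2), whose protein marks mRNAs of iron-using proteins for decay, was higher by 1.00 as well. FET3 and FTR1, the oxidase and permease of high-affinity uptake, had 0.83 and 0.87, and the regulators differed from each other, with AFT1 at 0.40 and AFT2 at -0.13.

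T1 against A2 gave a mixed list, with 13 called higher and 7 lower and a median of 0.11. The interaction was called for HMX1 (0.88, adjusted p = 4.1e-11, edgeR), FRE5 (0.87) and TIS11 (0.95), and FIT3 was higher in both comparisons. The iron count was also 24 of 28 with each chromosome centred on its own median. The core of the Aft1 and Aft2 motif, TGCACCC, occurred in 13 of 28 iron gene windows and in 1.03% of all windows. FIT3 and FRE5 are neighbours on chromosome XV, transcribed away from each other, and their overlapping windows (chrXV:1061156-1061355, minus strand, and chrXV:1061264-1061463, plus strand) are shown for the match that both contain.
FIT3: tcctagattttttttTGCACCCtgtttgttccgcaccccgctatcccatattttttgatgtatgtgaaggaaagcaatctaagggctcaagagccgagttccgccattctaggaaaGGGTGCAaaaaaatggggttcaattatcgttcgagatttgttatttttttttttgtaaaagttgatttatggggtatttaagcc
FRE5: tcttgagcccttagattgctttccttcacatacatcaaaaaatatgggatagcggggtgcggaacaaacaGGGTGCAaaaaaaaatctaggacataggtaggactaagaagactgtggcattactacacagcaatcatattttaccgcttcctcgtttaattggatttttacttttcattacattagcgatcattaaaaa

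Respiratory genes were lower in T2. All 32 nuclear genes listed for the respiratory chain and ATP synthase were called lower, with a median log2 fold change of -0.49. Their values ran from -0.14 for the NADH dehydrogenase NDE1 to -0.93 for cytochrome c (CYC1), which measured 14.7, 16.03 and 17.8 CPM in T2 and 31.2, 29.4 and 31.6 CPM in A3. The cytochrome oxidase subunit COX6 was at -0.83 and the ATP synthase subunit ATP16 at -0.81. Of 17 TCA cycle genes 16 were lower. Malate dehydrogenase MDH1 (YKL085W) dropped most, with 413, 403 and 417 CPM in T2 and 840, 832 and 857 CPM in A3 (-1.04 ± 0.02), followed by the succinate dehydrogenase subunit SDH1 at -0.70 and KGD2 at -0.67.

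T1 against A2 did not show this: 9 of the 32 respiratory genes were called higher, 10 lower and 13 were not called, with a median of 0.00. The interaction was called for CYC1 (-1.03, adjusted p = 1.2e-08, edgeR), ATP16 (-0.67) and MDH1 (-0.83). Count and direction held with chromosome-centred offsets, where all 32 were again called lower.

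Stress genes were lower too, as the difference in their share of counts already shows. Of 36 stress-induced genes 29 were called lower and 2 higher (median -0.42). The catalase CTT1 and the mitochondrial superoxide dismutase SOD2 were at -0.82 and -0.97. Among 24 oxidative stress genes 21 were lower, the peroxiredoxin TSA2 most (55.0, 54.3 and 53.2 CPM in T2 and 140, 138 and 133 CPM in A3, -1.34 ± 0.04). In the osmotic stress list 19 of 21 were lower and 0 higher, with RTN2 at -1.27, PAI3 at -1.25, the aldehyde dehydrogenase ALD3 at -1.18 and SIP18 at -1.12. Trehalose and glycogen genes were lower for 16 of 19, and chaperones for 23 of 31. The heat-shock chaperone SSA4 was lower in T2 (-0.79) but higher in T1 against A2 (0.92), and the membrane heat-shock protein HSP30 behaved alike (-0.62 and 1.02). In T1 against A2 chaperones were called higher for 22 of 31 and lower for 2, and stress-induced genes for 16 and 17 of 36. Oxidative stress genes there were 1 higher and 15 lower, osmotic stress genes 5 and 13, and trehalose and glycogen genes 4 and 12. The interaction was called below 0 for 27 chaperones and 28 stress-induced genes, beside 25.3% of all tested genes.

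Genes for the use of non-sugar carbon were mostly lower in T2: 11 of 19 glyoxylate and gluconeogenesis genes were called lower and 4 higher, and 16 of 20 peroxisomal fatty acid genes were called lower. Over all tested genes 38.3% were called lower and 23.5% higher. The gluconeogenic enzymes FBP1 and PCK1 were lower in T2, with log2 fold changes of -1.10 and -1.04, as were the peroxisomal thiolase POT1 (-0.96) and the peroxisomal catalase CTA1 (-0.90). Peroxisomal citrate synthase CIT2, a target of the retrograde pathway from mitochondria to nucleus, went up instead, with 432, 438 and 436 CPM in T2 and 185, 180 and 176 CPM in A3 (1.27 ± 0.02). The carnitine acetyltransferases YAT2 (0.71) and YAT1 (0.49) and PDH1 (0.86), an enzyme of propionate use, were also higher. These 4 genes were named by the rule on a difference from T1 against A2, where they had the opposite sign: CIT2 -0.25, YAT2 -1.10, YAT1 -1.54 and PDH1 -0.64. In T1 against A2 18 of the 19 glyoxylate and gluconeogenesis genes were called lower (median -1.02, beside -0.26 in T2 against A3). The interaction was called above 0 for 16 of the 19 and below 0 for 2, beside 17.3% and 25.3% of all tested genes. Of the peroxisomal list 18 of 20 were called lower in T1 against A2 (median -0.45, beside -0.35). Glycolysis genes, called higher for 18 of 21 in T1 against A2, were 2 higher, 10 lower and 9 not called here, with a median of -0.07; with only the 6 libraries of the pair in the fit they were 5 higher and 5 lower.

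Phosphate genes were mostly lower in T2 as well. The high-affinity phosphate transporter PHO84 (YML123C, chrXIII:24037-25800) measured 39.9, 41.8 and 42.6 CPM in T2 and 133, 134 and 136 CPM in A3, a log2 fold change of -1.69 ± 0.03. SPL2, which holds back low-affinity phosphate uptake, was at -1.46 ± 0.05. Of 23 phosphate genes 16 were called lower and 3 higher; PHO12 (-1.46) and PHO11 (-0.98) are near-identical copies, so their separate values are uncertain. PHO84 went the other way in T1 against A2 (0.68), and SPL2 did not (-0.80).

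In purine synthesis 17 of 22 genes were called lower and 3 higher. ADE17 (YMR120C, chrXIII:507502-509280), which adds the last carbon of the purine ring, had 111, 114 and 116 CPM in T2 and 270, 269 and 274 CPM in A3 (-1.25 ± 0.03). ADE1 was at -0.88 and the cytosolic serine hydroxymethyltransferase SHM2, which supplies one-carbon units, at -0.78. The glycine cleavage gene GCV1 was at -1.497 ± 0.04; its partners GCV2 and GCV3, picked after their values were seen, had -0.61 and -0.81. The mitochondrial hydroxymethyltransferase SHM1 was called higher, by 0.085. That call was not kept with chromosome-centred offsets, where 0 of the 22 genes were called higher. All of ADE17 (1.53), SHM2 (1.29), ADE1 (0.39) and GCV1 (0.28) were called higher in T1 against A2, and the ADE17 interaction of -2.79 was the largest among named genes called in opposite directions. The methionine genes MET6 (-0.28 and 1.72) and SAM2 (-0.77 and 0.57) also had opposite signs in the 2 comparisons. PHO84, ADE17, SHM2, GCV1 and MET6 were named by the rule on that difference, so their contrast with T1 against A2 was fixed in part by how they were chosen.

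**Figure D2:**
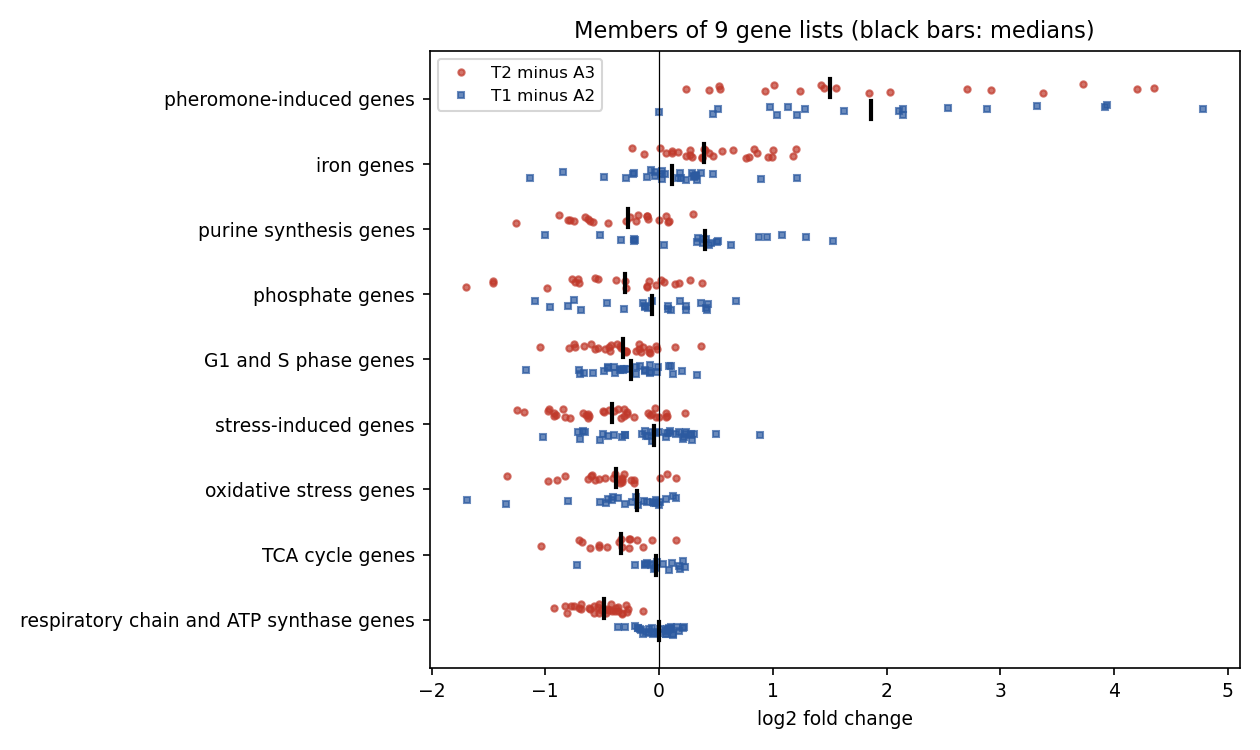
Log2 fold change of every tested member of 9 gene lists (1 point per gene) in T2 minus A3 (circles) and T1 minus A2 (squares), with the list median as a black bar. Pheromone-induced genes lie above 0 in T2 minus A3, respiratory chain genes all lie below 0 there with a median of -0.49, and purine genes have medians of -0.27 and 0.40 in the 2 comparisons.

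Cell cycle genes were lower at the G1 and S phase step, with 22 of 30 called lower and 2 higher (median -0.31). The cohesin subunit MCD1 was at -1.05 ± 0.07, from 15.1, 13.1 and 14.9 CPM in T2 and 27.3, 31.5 and 30.3 CPM in A3. The large ribonucleotide reductase subunit RNR1 was at -0.74 and the primase subunit PRI2 at -0.74. Histone genes were called lower for 7 of 10 (median -0.14), beside 10 of 10 in T1 against A2 (median -0.56). In the G2 and M phase list 14 of 30 were called lower, near the share of 38.3% over all tested genes. A called exception was SLI15, of the chromosomal passenger complex, with 63.6, 66.1 and 66.2 CPM in T2 and 28.6, 29.6 and 31.7 CPM in A3 (1.12 ± 0.04).

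Cell wall synthesis genes were higher for 15 of 27 and lower for 6, beside 23.5% higher and 38.3% lower over all tested genes. The stress sensor MID2 was higher by 1.26 ± 0.03 (371 bases of it overlap another gene) and the repair chitin synthase CHS1 by 0.96 ± 0.02. Ergosterol genes were lower for 18 of 27, with ERG11, the azole target, at -0.71. The heme enzyme HEM13 was at -1.02.

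Expression also differed by whole chromosomes. On chromosome VIII the median log2 fold change over 292 tested genes was -0.37, and 82.2% of them were called lower in T2. Relative to the mean of the 6 libraries, the chromosome VIII medians were -0.20, -0.18 and -0.18 in T2 and 0.18, 0.18 and 0.19 in A3. Medians on XI (-0.20), IX (-0.18), IV (-0.17), XVI (-0.14) and XV (-0.13) were also below the median of -0.05 over all genes. Chromosomes XII (0.19), II (0.15), III (0.09) and VII (0.06) were above it, and on XII 80.4% of 520 genes had a fold change above 0. The T2 and A3 library medians did not overlap on 15 of the 16 chromosomes, chromosome I being the exception. These library medians were not set against the median of all genes. Chromosomes VI (-0.05), XIII (-0.03) and XIV (-0.02) thus counted as separate, though their medians lay near the -0.05 over all genes. In T1 against A2 the library medians likewise overlapped on only 1 chromosome, VI.

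On the chromosomes with the largest shifts both arms moved the same way. The left and right arms of VIII had medians of -0.37 and -0.38, those of XII 0.24 and 0.17, those of II 0.15 and 0.12 and those of XI -0.22 and -0.15. On III the left arm was at 0.03 and the right at 0.10, and on I the left, middle and right parts of equal length differed in sign (0.07, -0.05 and -0.07). Without the genes of 10 lists tied to growth, stress and respiration, an alternative chosen after seeing the data, the chromosome VIII median was -0.37 and that of XII was 0.19. Against the euploid population of the same route, chromosome VIII was at 0.13 in T2 and 0.46 in A3, so both populations were above their euploid population there, A3 more so. DNA copy number was not measured in these libraries.

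**Figure D3:**
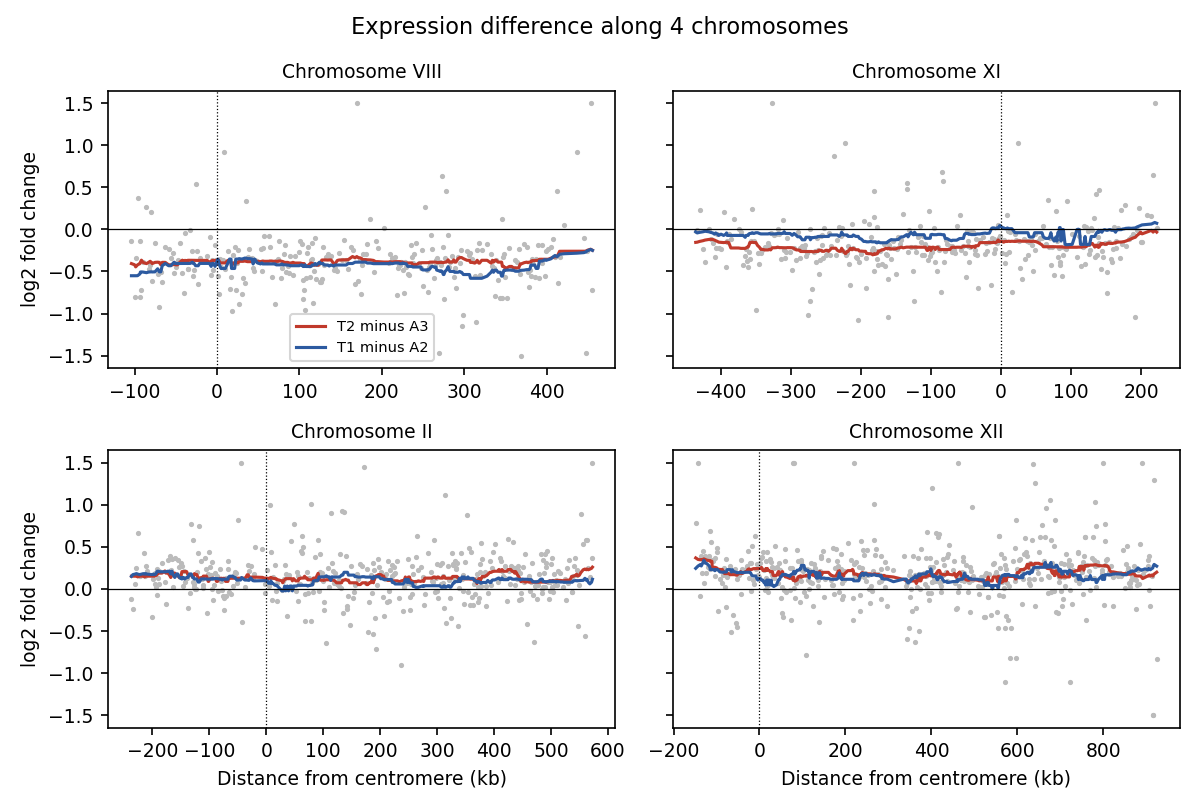
Log2 fold change of T2 minus A3 for each gene (grey points, drawn at ±1.5 where larger) against distance from the centromere in kb on chromosomes VIII, XI, II and XII, with running medians over 31 genes for T2 minus A3 (red) and T1 minus A2 (blue). The red line stays below 0 along VIII, with arm medians of -0.37 and -0.38, and above 0 along XII.

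T1 against A2 had a similar profile over several chromosomes, with -0.42 on VIII, 0.17 on XII, -0.14 on IV and 0.10 on II. Chromosome I set the comparisons apart, at -0.03 in T2 against A3 and -0.32 in T1 against A2. So did IX, at -0.18 and -0.04, XI, at -0.20 and -0.05, and III, at 0.09 and 0.22. The euploid populations differed by at most 0.11 in the median of any nuclear chromosome (chromosome I). The chromosome a gene lies on accounted for 16.7% of the variance of log2 fold changes (limited to ±1) in T2 against A3, 14.99% in T1 against A2 and 0.339% between the euploid populations.

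**Figure D4:**
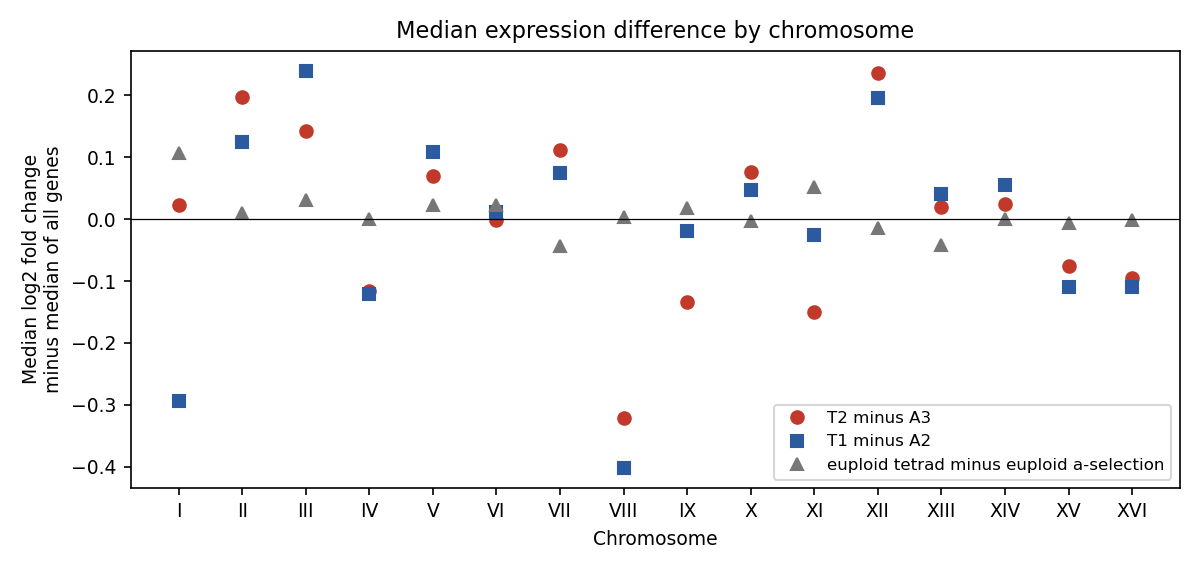
Median log2 fold change of the tested genes of each chromosome, minus the median of all genes, for T2 minus A3 (circles), T1 minus A2 (squares) and euploid tetrad minus euploid a-selection (triangles). Chromosome VIII lies lowest in T2 minus A3 and XII highest, and the euploid triangles stay near 0.

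Several of the named genes lie on the shifted chromosomes. The part of the chromosome's shift in their values was not tested. SPC97, a spindle pole body gene called lower in all 3 comparisons, lies on VIII and was at -0.82 in T2 against A3. The enolase gene ENO2, also on VIII, was at -0.81, with a near-identical partner in ENO1. SOD2, ERG11 and SPL2 are on VIII too, and MID2 and HMX1 are on XII. With chromosome-centred offsets 1045 genes were called higher and 2055 lower.

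The values of some genes with near-identical copies varied between libraries of one population; how shared reads were counted is not given, and its part in this was not tested. COS2, a member of a subtelomeric family, had 2.84, 2.96 and 166 CPM in T2 and 3.23, 3.49 and 3.33 CPM in A3, so its log2 fold change of 4.08 (SE 1.68, adjusted p = 0.04, edgeR) rested on T2 replicate 3. Without that library it was -0.20 and not called. The translation factor gene TEF2, which has a near-identical copy, had 3642, 13281 and 13079 CPM in the T2 libraries and was not called (-0.26, adjusted p = 0.67).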

How the data were processed

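RNA was sequenced from 23 libraries in 8 groups. The authors' deposited table holds raw counts per gene for each library. The submitters' processing notes name build R64, HTSeq 0.6.1p1, HISAT2 2.0.5, DESeq2 1.14.1, FastQC 0.11.5 and bcl2fastq 2.17.1.14. Strand use and the treatment of reads shared by gene copies are not given in the sources used here. Gene starts and ends in the authors' second deposited table (other values) were used only to find overlapping genes.

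All 23 libraries were fitted together with edgeR 4.0.16 (R 4.3.3, limma 3.58.1): filterByExpr, TMM scaling, 1 coefficient per group, quasi-likelihood test with 15 residual degrees of freedom, Benjamini-Hochberg adjustment over 6111 genes. Expression levels are given in CPM after TMM scaling; ± after a log2 fold change is the SE implied by the F statistic. The common biological coefficient of variation was 5.05%. In simulated counts 200 of 6111 genes were changed in T2, as many raised as lowered. Of these 79.5% were recovered at 1.2-fold, 93% at 1.5-fold and 98.5% at 2-fold. False calls made up 4.22%, 4.62% and 3.90% of all calls. Far fewer genes were changed there than were called here, so the simulation could not check scaling or error rate at the shares called here. Within each of the 8 groups every replicate pair differed beyond sampling noise (chi-square averaged over genes, 3.86 to 26.1 per gene). A few genes can dominate this average, so it does not show that the libraries came from separate cultures. Each library was counted as a replicate. RefSeq (R64) gave names and sequence for 5749 tested genes.

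The pair, the 50 gene lists and the tests were chosen with earlier results of these data known. Lists are therefore described by counts and medians without a list test. The 137 ribosomal protein genes stayed in the fit and in the counts over all genes (30 called higher and 58 lower in T2 against A3). Their calls are not read as a result, since their share chose the pair. Named genes were the 10 per direction with the largest called change (average log2 CPM of 3 or more), 6 per direction called alike in all 3 comparisons, 6 per direction that differed from T1 against A2, up to 4 per list, and all mating-type and marker genes: 216 in all. Other genes named are members of the lists that the text describes. Alternatives were RLE, upper-quartile and restricted TMM scaling, DESeq2 1.42.0, other filters, fewer groups, a replicate block, chromosome-centred offsets, a stricter threshold and leaving out each library.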

Additional observations from a re-analysis of the deposited data

Results flagged for a closer look

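For 28 of the 216 named genes the T2 against A3 difference and the T1 against A2 difference were at least 2-fold apart, with the interaction called in edgeR's quasi-likelihood test. Over all 6111 tested genes 106 had an interaction of that size. Of the 28 genes 12 had been named because they differed from T1 against A2, so neither the count nor their signs is a finding. They are ADE17, PHO84, SHM2, MET6, GCV1, MET17, ADY2, YAT1, YAT2, YGR035C, CIT2 and PDH1. Of the 16 others 10 had opposite signs in the 2 comparisons. Values below are interactions on the log2 scale, T2 minus A3 less T1 minus A2. No explanation was tested.

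One-carbon, purine and methionine genes included the most negative values: ADE17 -2.79, SHM2 -2.08, MET6 -2.0, GCV1 -1.77, MET17 -1.72, SAM2 -1.33 and ADE1 -1.27. The phosphate transporter PHO84 was at -2.37. The pheromone genes MF(ALPHA)2, MF(ALPHA)1 and MFA1 were at -2.0, -1.80 and -1.27, the first and second of them higher in T2 than in A3 and higher still in T1 than in A2. The leucine branch genes LEU2 and ILV5 were both at -1.45.

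Heat-shock and sugar genes formed a further set, with SSA4 at -1.71, HSP30 at -1.65, TDH1 at -1.50, ENO2 at -1.18 and FBA1 at -1.10. The wall mannoprotein HPF1 was at -1.14, the urea amidolyase DUR12 at -1.14, CYC1 at -1.03 and the amino acid permease GAP1 at -1.0. All 6 positive interactions belonged to genes named because they differed from T1 against A2, so their sign was set in large part by that choice. They were the acetate transporter ADY2 at 2.17, the carnitine acetyltransferases YAT1 at 2.04 and YAT2 at 1.81, YGR035C at 1.78, CIT2 at 1.53 and PDH1 at 1.49.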

How the results depend on the processing

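Scaling, filter, tool and leaving out 1 library left each count of called genes over the whole table within 1.5 times the reported one, with the following exceptions. Requiring at least 10 counts in every library gave 77 genes at 2-fold or more in T2 against A3 (126 reported) and 121 in T1 against A2 (193 reported), since that filter removes genes with few counts in any group. Upper-quartile factors gave 1699 genes with a higher interaction (1057 reported), chromosome-centred offsets gave 572 genes higher in both comparisons (870 reported), and an adjusted p under 0.01 gave 336 genes called in opposite directions (505 reported); the cause was not tested. Leaving out each library gave 1300 to 1347 genes higher and 2169 to 2261 lower in T2 against A3. Of 98 counts of list members called in a direction, 43 moved by over 1.5 times in some setting, 26 of them in the direction with fewer members. Among the larger counts in the text, glycolysis genes lower went from 10 to 5 with only the groups compared and meiosis genes lower from 7 to 4 with chromosome-centred offsets; the cause was not tested. Alpha-specific genes higher went from 5 to 3 at 10 counts in every library, where both alpha pheromone genes could not be tested. Of the 212 named genes that are not ribosomal protein genes, 14 lost their call in some setting. Under chromosome-centred offsets ADY2 was -0.063, PUT1 -0.047, VMA10 0.029 and VMA16 0.10, each with reversed sign, and leaving out each library moved COS2 between -0.20 (without T2 replicate 3) and 4.66. Same-numbered libraries of T2 and A3 did not vary together (correlations -0.04, -0.04 and 0.18), so the numbers were not taken as pairs; with a replicate block 1423 genes were higher and 2319 lower. The median of all genes moved from -0.05 to at most 0.00 with other scaling. Few counts over the A3 libraries (8 for URA3, 36 for IME4) limit the precision of those ratios.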

Other observations

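Further genes differed between T2 and A3 by smaller amounts. The glucose transporter HXT2 averaged 8272 CPM in T2 and 5540 CPM in A3, a log2 fold change of 0.58 ± 0.03 (adjusted p = 4.0e-14, edgeR), while HXT5, a transporter of slowly growing cells, was at -0.51. In the anaerobic and hypoxic list 9 of 16 genes were called lower and 4 higher, the latter near the share of 23.5% over all tested genes. Among the higher genes were the sterol transporter AUS1 at 0.94 and the regulator SUT1 at 0.69. The daughter cell chitinase CTS1 was at 0.63, and the eisosome protein PUN1 at 0.77. Of 16 meiosis genes 7 were called lower, near the share of 38.3% over all tested genes; HOP1, of the meiotic chromosome axis, measured 12.8, 12.2 and 12.7 CPM in T2 and 25.7, 24.7 and 27.3 CPM in A3 (-1.04), and the recombinase DMC1 was at -0.63. The NAD synthesis enzyme NMA1 was higher by 0.58 and BNA2 lower (-0.53). Of 10 galactose genes 7 were called lower and 0 higher, GAL7 at -0.32.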
